A study of Mus musculus with 18 samples.

Results

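Messenger RNA of 10 genes of bile acid synthesis, bile acid transport and the bile acid receptor was followed in hepatocytes of young, old and Smo-deleted mice before and after partial hepatectomy (PH), the surgical removal of most of the liver. The genes were Cyp7a1, Cyp8b1, Cyp27a1, Cyp7b1, Slc27a5, Baat, Slc10a1, Abcb11, Nr1h4 and Nr0b2, taken by name from the table of young and old mice and by the same Ensembl identifiers from the table of Smo-floxed mice, and they are 10 of the 31053 genes in each table. All 10 passed the filter on low counts in both tables (14554 and 13654 genes tested).

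Young and Old mice were male C57BL/6J wild type animals of 3 and 24 months, bought from the Jackson Laboratory and from the NIA Aged Rodent Colonies respectively. Hepatocytes came from 3 mice per age without surgery (Young, Old) and from 3 mice per age at 48 h after PH (Young PH, Old PH). The second table holds males with floxed Smo alleles (Smo tm2Amc/J, bred on C57Bl6/J), labelled 3 months old. They had received AAV8-TBG-Luc, a control virus with luciferase (Smo (+), 1 mouse at 0 h and 1 at 48 h after PH), or AAV8-TBG-Cre (Smo (-), 2 mice at each time), and PH followed 7 days after the virus. TBG is a hepatocyte promoter, so that Cre was directed to hepatocytes and not to other liver cells. Smoothened (Smo) is the transmembrane transducer of Hedgehog ligands. All 18 libraries were made from freshly isolated, collagenase-perfused hepatocytes.

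Hepatocytes make bile acids from cholesterol. In the classical pathway Cyp7a1 adds the first hydroxyl group and sets the rate, and Cyp8b1 adds the 12-alpha-hydroxyl that makes cholic acid. In the alternative pathway Cyp27a1 oxidises the side chain and Cyp7b1 hydroxylates the resulting oxysterol. Slc27a5 and Baat couple bile acids to coenzyme A and then to taurine or glycine, Slc10a1 (NTCP) takes bile acids up from blood, and Abcb11 (BSEP) pumps them into bile. Bile acids bind the nuclear receptor FXR (Nr1h4), which with RXR induces Abcb11 and the corepressor SHP (Nr0b2). SHP lowers transcription of Cyp7a1 and Cyp8b1, which closes a feedback loop. After loss of liver mass, the bile acid load per remaining hepatocyte rises, and this axis is known in mice for its part in regeneration.

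FXR with RXR binds an inverted repeat with 1 base between its arms (IR-1, AGGTCANTGACCT). RefSeq promoter windows of 300 bases around annotated starts (build GRCm38.p6, most of each window upstream of the start) were found for 6 of the 10 genes, Cyp27a1, Abcb11, Nr0b2, Cyp8b1, Nr1h4 and Slc10a1, and gave 7 windows. Both strands were searched for IR-1 and for the direct repeat DR-1 (AGGTCANAGGTCA), allowing 2 mismatches each, and for the LRH-1 site TCAAGGNCA without mismatch. IR-1 and DR-1 share the first repeat unit and can overlap. The windows of Abcb11 and Nr0b2, FXR targets that fell together after PH in young mice, and of Cyp8b1, the member with the largest fall, are printed 5′ to 3′ on the gene's strand, with matches in capitals. They lie at chr2:69342567-69342866 (minus strand), chr4:133553126-133553425 (plus strand) and chr9:121916256-121916555 (minus strand).
Abcb11: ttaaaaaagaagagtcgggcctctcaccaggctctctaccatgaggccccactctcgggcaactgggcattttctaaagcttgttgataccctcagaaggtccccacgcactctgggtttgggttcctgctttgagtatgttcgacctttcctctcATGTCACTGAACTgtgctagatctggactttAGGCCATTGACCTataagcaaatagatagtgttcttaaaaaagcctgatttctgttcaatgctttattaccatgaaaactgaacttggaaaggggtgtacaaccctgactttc
Nr0b2: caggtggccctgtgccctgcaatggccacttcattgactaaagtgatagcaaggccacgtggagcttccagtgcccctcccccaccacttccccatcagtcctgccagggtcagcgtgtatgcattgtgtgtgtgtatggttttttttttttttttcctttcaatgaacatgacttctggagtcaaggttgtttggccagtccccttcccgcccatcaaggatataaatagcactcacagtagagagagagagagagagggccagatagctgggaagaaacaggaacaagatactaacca
Cyp8b1: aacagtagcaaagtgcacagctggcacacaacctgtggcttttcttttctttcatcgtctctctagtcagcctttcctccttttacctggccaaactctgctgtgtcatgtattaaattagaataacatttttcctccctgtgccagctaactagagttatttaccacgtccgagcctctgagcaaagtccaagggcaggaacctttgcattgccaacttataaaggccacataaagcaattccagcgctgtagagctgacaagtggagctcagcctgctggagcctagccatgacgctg
Abcb11 held 2 IR-1 matches, ATGTCACTGAACT at -94 to -82 with 2 mismatches and AGGCCATTGACCT at -63 to -51 with 1 mismatch, counting the base before the start as -1. IR-1 matches were found in 374 of 32851 promoter windows (1.14%). The windows of Nr0b2 and Cyp8b1 held no match to the 3 motifs, which says only that these letters are not in these windows. Nr1h4 held 1 DR-1 match, a motif found in 3.86% of windows, and the LRH-1 letters were found in 1.62%.

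Values are given as CPM, the read pairs of a gene scaled to a common number of pairs in genes, after TMM scaling, and calls were made at an adjusted p under 0.05 (edgeR quasi-likelihood test, Benjamini-Hochberg over all tested genes). Library sizes were 17089525 to 36646939 read pairs in the wild type table and 16835686 to 19151731 in the Smo table. The libraries of old mice stood apart from those of young mice. HTSeq assigned 2.03 to 3.74% of their pairs to no feature, against 25.2 to 33.9% in young mice. Such pairs can lie between genes or in parts of genes that were not counted. Malat1, a nuclear RNA, was at 25.1 to 157 CPM in old mice against 3150 to 6240 in young mice. Age, the source of the mice and these library features cannot be told apart. The Smo (+) library at 0 h held 22.5% mitochondrial genome counts against 3.32 to 6.85% in the other 5 Smo libraries, and summed Kupffer cell and macrophage markers of 523 CPM against 103 to 147 in Smo (-). Its Malat1 was at 4730 CPM against 108 to 700 in the other 5. Its share of pairs assigned to no feature was 9.2% against 4.2 to 6.61%. Smo itself was at 6.17 and 11 CPM in the Smo (+) libraries at 0 h and 48 h, at 1.42 and 3.29 CPM in Smo (-), and at 1.51 and 1.2 CPM in Smo (-) PH. Hepatocyte markers summed to 44900 to 183000 CPM in every library, and the bile duct markers Krt19 and Epcam were at 0 to 4.35 CPM. In bulk RNA, fewer cells of a type and less RNA per cell cannot be told apart.

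**Figure D1:**
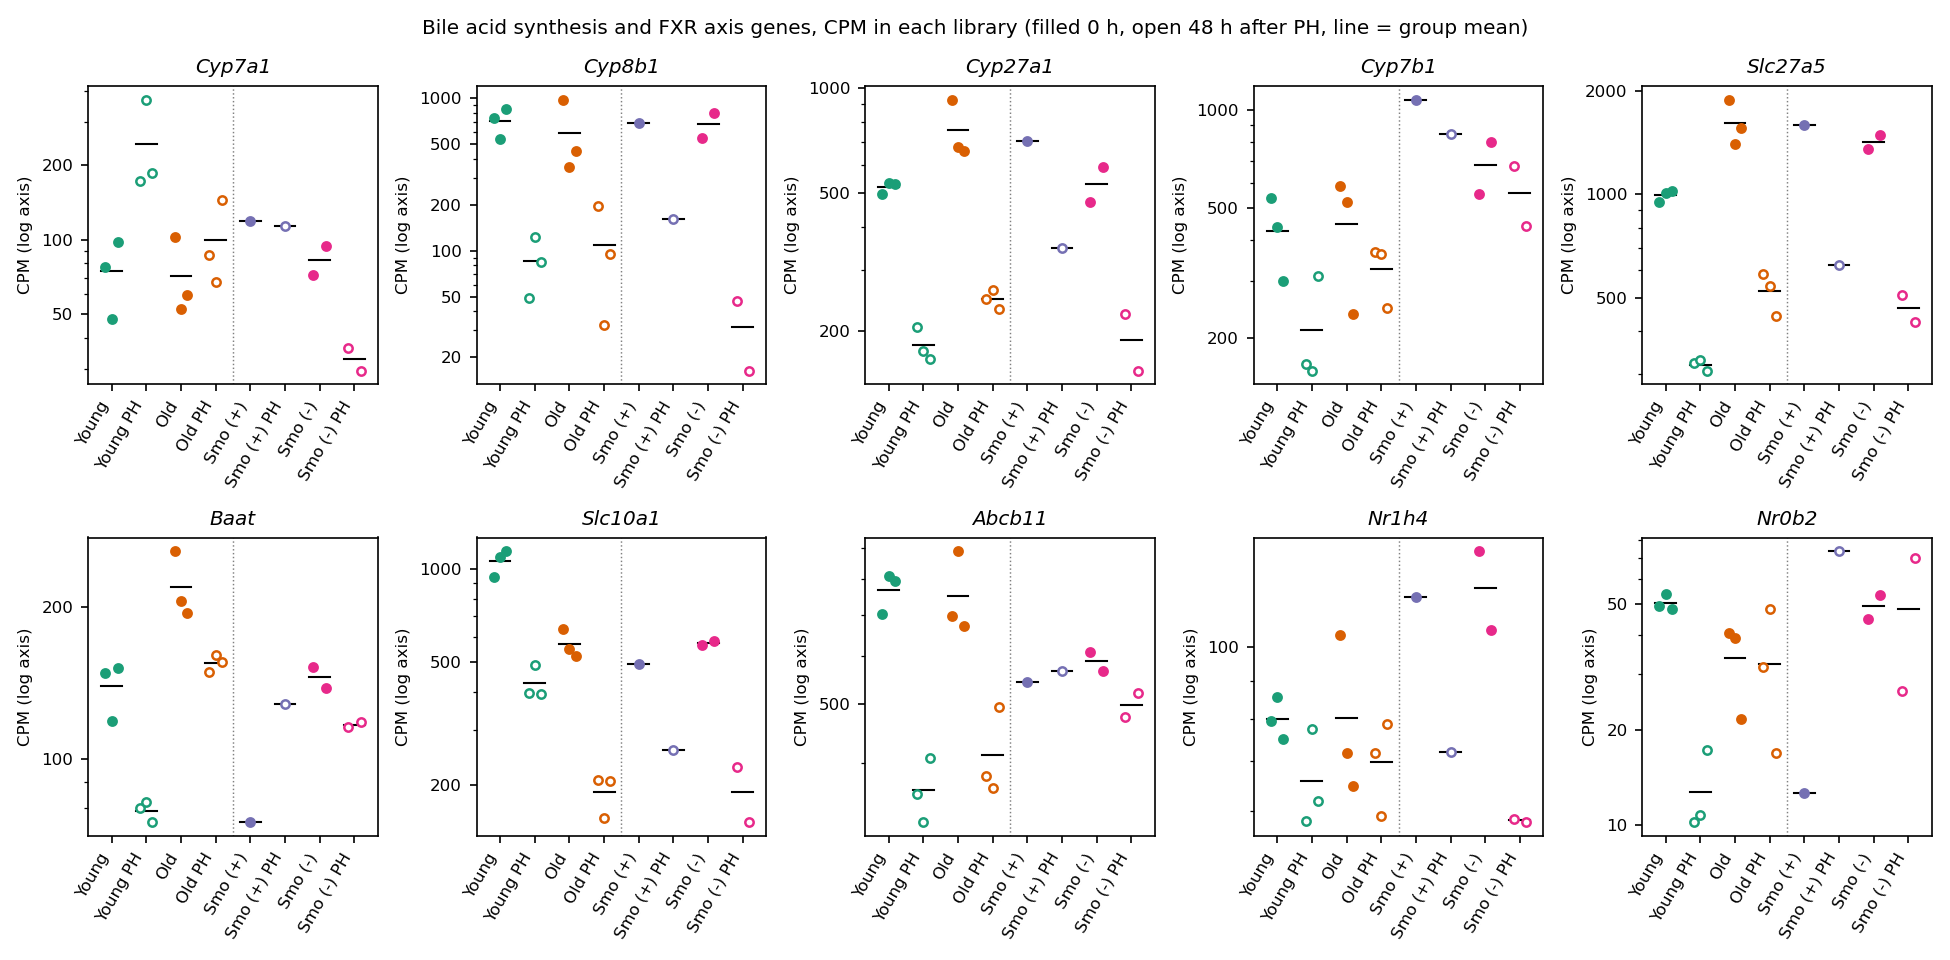
CPM of each of the 10 genes on a log axis for the 18 libraries, 1 point per mouse, filled at 0 h and open at 48 h after PH, with a line at the group mean and a dotted line between the separately scaled tables. Cyp7a1 is at 173 to 369 CPM in Young PH, above every other library of its table, while Cyp8b1, Cyp27a1, Slc27a5 and Slc10a1 are lower after PH in both ages.

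Per kilobase of exons, the scale on which genes can be compared, Slc10a1 was the most abundant member in Young (480 ± 48.0 CPM per kilobase, SD, n = 3), followed by Slc27a5 (408 ± 16.6) and Cyp8b1 (366 ± 81.6). The difference between Slc27a5 and Cyp8b1 was within their spread. Cyp27a1 (239 ± 9.26), Cyp7b1 (197 ± 55.6) and Abcb11 (149 ± 11.5) came next, with Cyp27a1 and Cyp7b1 within their spread. Baat (71.9 ± 9.19), Nr0b2 (44.7 ± 2.66), Nr1h4 (34.7 ± 2.27) and Cyp7a1 (17.8 ± 6.10) were lowest. In Young PH the order at the bottom changed: Cyp7a1 reached 58.1 ± 26.2 CPM per kilobase and stood sixth, and Nr0b2, at 11.3 ± 3.49, was last. In Old, Slc27a5 was first (664 ± 102) and Slc10a1, at 259 ± 27.3, lay below Cyp27a1 (348 ± 68.4) and within the spread of Cyp8b1 (305 ± 173), and Cyp7a1 was last (17.1 ± 6.44). In Old PH Cyp7a1 (23.8 ± 9.58), Nr0b2 (28.6 ± 14.0) and Nr1h4 (30.3 ± 4.30) were lowest and lay within their spread.

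Regeneration in young mice was accompanied by lower mRNA of most of the set and by higher Cyp7a1. At 48 h after PH 8 of the 10 genes fell and 1 rose, where 16.4% of all tested genes were lower and 17.8% higher. The median log2 fold change of the 10 genes was -1.20, against -0.01 over all tested genes. Together the 10 genes took 0.455 to 0.484% of the counts in Young and 0.198 to 0.253% in Young PH.

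Cyp7a1 (chromosome 4, 6265612 to 6275633, minus strand) was at 77.6, 47.6 and 98.2 CPM in the 3 Young libraries and at 173, 369 and 186 CPM in Young PH. All 3 regenerating livers lay above all 3 resting livers, with the second Young PH mouse highest. The rise was 3.26-fold (log2 1.70 ± 0.37 SE, edgeR adjusted p = 0.00294). Cyp8b1 (chromosome 9, 121914356 to 121916305, minus strand) moved the other way, from 748, 541 and 853 CPM to 48.6, 123 and 84.4 CPM. The groups were far apart, and Cyp8b1 in Young PH was 0.119 times its level in Young (log2 -3.07 ± 0.57 SE, edgeR adjusted p = 0.0009). The ratio of Cyp8b1 to Cyp7a1 counts within a library, which does not depend on the scaling, was 9.63, 11.4 and 8.69 in Young and 0.282, 0.333 and 0.452 in Young PH. Every regenerating library thus lay below every resting one in this ratio. The counts were not corrected for exon length (1950 bases for Cyp8b1, 4174 for Cyp7a1), so that a ratio of 1 does not mark equal levels.

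In the alternative pathway, Cyp27a1 was at 496, 532 and 530 CPM in Young and at 206, 175 and 167 CPM in Young PH. The groups did not overlap, and the fall was to 0.352 times the resting level (log2 -1.51 ± 0.16 SE, edgeR adjusted p = 7.03e-06). Cyp7b1, the enzyme that follows it, was at 539, 439 and 299 CPM and then at 166, 159 and 310 CPM, so that the third Young PH mouse lay within the resting range. Its fall of 1.01 on the log2 scale (SE 0.34, edgeR adjusted p = 0.0353) was not called with the replicate number as a block (0.0627), with library totals (0.092) or when any of Young 1, Young 2, Young PH 1 or Young PH 2 was left out.

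The conjugating enzymes fell as well. Slc27a5, the CoA ligase, went from 947 to 1022 CPM in Young to 306 to 329 CPM in Young PH (log2 -1.64 ± 0.16 SE, edgeR adjusted p = 4.08e-06). Baat, the amino acid transferase, went from 119 to 152 CPM to 75.1 to 82.1 CPM (log2 -0.82 ± 0.14 SE, edgeR adjusted p = 0.000376). Neither gene's groups overlapped, and the change of Baat was the smallest of the 8 falls.

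Both transporters fell. Slc10a1, the uptake carrier, was at 937, 1089 and 1140 CPM in Young and at 397, 488 and 394 CPM in Young PH (log2 -1.31 ± 0.16 SE, edgeR adjusted p = 3.62e-05). Abcb11, the export pump, was at 701, 810 and 794 CPM and then at 357, 321 and 408 CPM (log2 -1.09 ± 0.17 SE, edgeR adjusted p = 0.000236). The groups of each gene were separate. Abcb11 shares 136 exonic bases with the antisense gene Gm13613 and 19 with the pseudogene Gm13614 on the other strand, and the strand setting of the count is not stated.

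The receptor and its target corepressor differed. Nr1h4 (FXR) was at 79.5, 85.5 and 75.1 CPM in Young and 58.2, 77.5 and 61.8 CPM in Young PH, overlapping groups with a log2 difference of -0.28 ± 0.17 SE (edgeR adjusted p = 0.237). Nr0b2 (SHP, chromosome 4, 133553376 to 133556536, plus strand) was at 49.5, 54.1 and 48.4 CPM in Young and at 10.2, 10.7 and 17.3 CPM in Young PH. The resting libraries lay close together and all regenerating ones were well below them, a level 0.252 times that of Young (log2 -1.99 ± 0.33 SE, edgeR adjusted p = 0.000386).

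Other genes of bile acid handling were taken in 4 lists, which were chosen with earlier results of these data known. In each list more genes fell than rose. Of 14 other synthesis enzymes tested, 10 fell and 4 were not called (median log2 -0.52), with Abcd3 (the peroxisomal importer of bile acid intermediates, -1.15), Cyp46a1 (cholesterol 24-hydroxylase, -2.40), Slc27a2 (a very long chain acyl-CoA synthetase, -1.19) and Hsd3b7 (which oxidises the 3-beta-hydroxyl, -1.62) at the smallest adjusted p. Of 16 other transporters tested, 10 fell, led by Abcc3 (MRP3, basolateral export, -1.79), Abcg8 (sterol export, -1.91), Atp7b (copper export, -0.86) and Abcg2 (-0.80), and only Abcb1a (a multidrug exporter, 1.27) rose. Of 22 regulators, 8 fell and 14 were not called, among the falls Insig2 (-1.49), the mRNA decay factor Zfp36l1 (-1.03), Mafg (-0.74) and Klb (beta-Klotho, the FGF15 coreceptor, -0.70). Of 18 other FXR targets, 6 fell and 3 rose. Foxm1, a factor of the cell cycle, rose by 6.21 on the log2 scale, and Ces1g (-1.23), Mafg (-0.74) and Pltp (-1.92) fell. Hepatocyte markers moved alongside, with 5 of 8 lower (median log2 -0.87) and a summed 44900 to 54300 CPM in Young PH against 79500 to 99500 CPM in Young. Endothelial markers were lower in 4 of 8 (median log2 -0.79), at a summed 85.4 to 104 CPM against 127 to 203 CPM. Their part in these results was not tested.

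**Figure D2:**
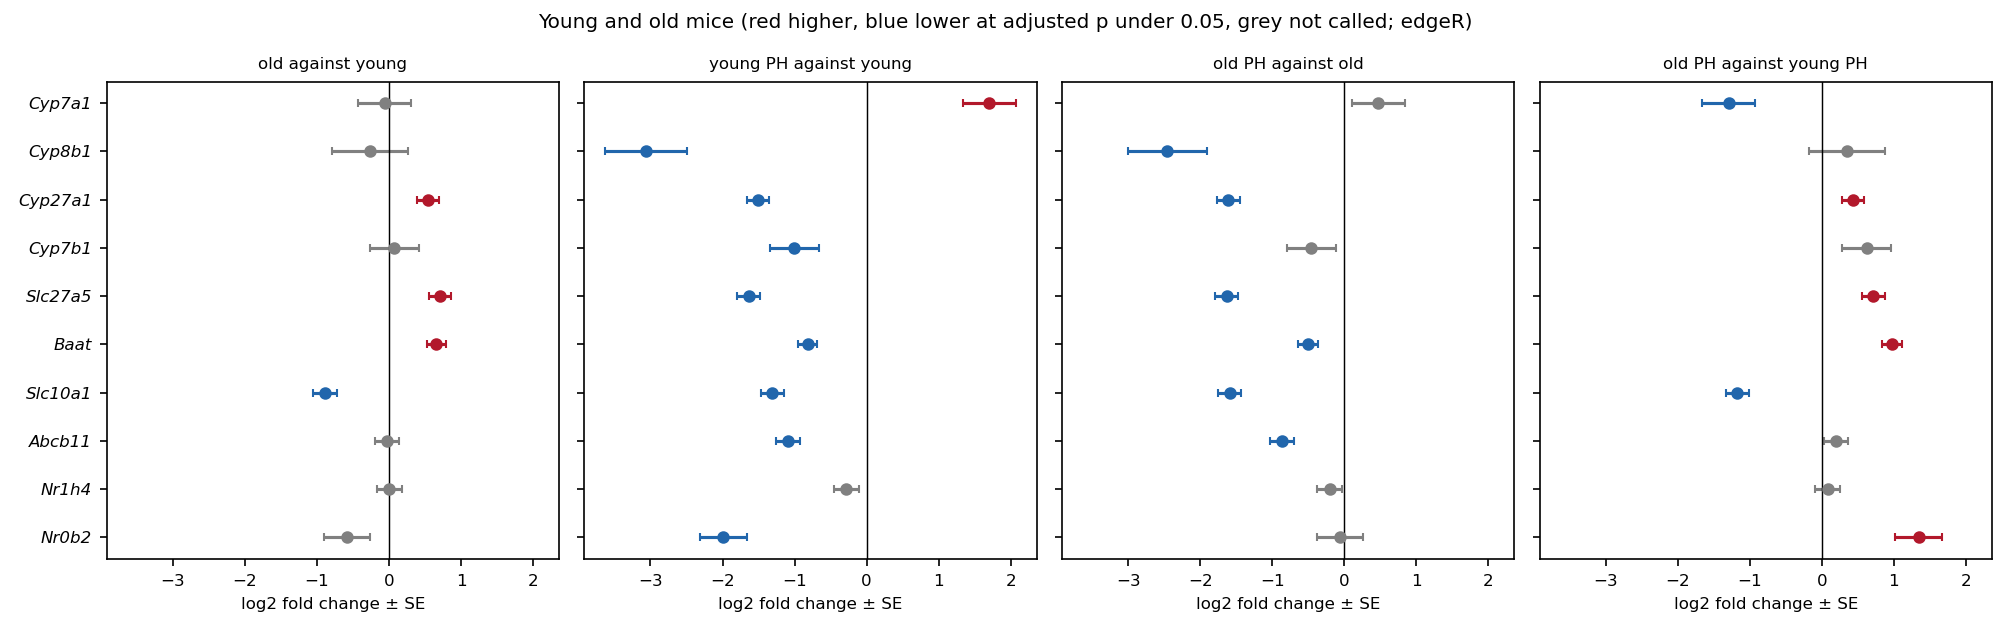
Log2 fold change with its standard error (edgeR) of the 10 genes in the 4 comparisons of young and old mice, 3 libraries per group, on 1 common axis; red points are higher, blue points lower at an adjusted p under 0.05, grey points not called. Cyp7a1 stands at 1.70 for Young PH against Young and at -1.29 for Old PH against Young PH, and Cyp8b1 at -3.07 and -2.46 in the comparisons after PH.

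Old mice shared the fall of most of these genes after PH, while Cyp7a1 and Nr0b2 were not called. At 48 h 6 of the 10 genes fell in old mice and 4 were not called, where 15.1% of all tested genes were lower and 22.5% higher. The median log2 fold change was -0.68, against 0.08 over all tested genes.

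Cyp7a1 was at 102, 52.4 and 59.5 CPM in Old and at 86.5, 67.1 and 144 CPM in Old PH. The groups overlapped, and the log2 difference was 0.48 ± 0.37 SE (edgeR adjusted p = 0.325). Cyp8b1 was at 981, 353 and 452 CPM in Old, the first library lying well above the others, and at 198, 32.8 and 95.1 CPM in Old PH. The groups did not overlap in spite of the wide spread in both, and Cyp8b1 fell by 2.46 on the log2 scale (SE 0.55, edgeR adjusted p = 0.00365). The Cyp8b1 to Cyp7a1 ratio of counts within libraries was 9.60, 6.73 and 7.59 in Old and 2.29, 0.489 and 0.660 in Old PH, with no overlap.

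Nr0b2 was at 40.5, 39.0 and 21.7 CPM in Old and at 31.6, 48.5 and 16.9 CPM in Old PH, fully overlapping groups with a log2 difference of -0.06 ± 0.32 SE (edgeR adjusted p = 0.913). Nr1h4 was at 64.9 to 104 CPM in Old and 59.1 to 78.6 CPM in Old PH and was not called (log2 -0.20 ± 0.18 SE). Cyp7b1 was at 584, 524 and 237 CPM in Old and at 368, 363 and 247 CPM in Old PH, again overlapping and not called (log2 -0.46 ± 0.34 SE).

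Cyp27a1 went from 662 to 927 CPM in Old to 232 to 263 CPM in Old PH (log2 -1.61 ± 0.16 SE, edgeR adjusted p = 4.81e-06). Slc27a5 went from 1407 to 1891 CPM to 442 to 586 CPM (log2 -1.63 ± 0.16 SE, edgeR adjusted p = 5.08e-06). Both falls were close in size to those of young mice, whose log2 values were -1.51 and -1.64. Slc10a1 was at 637, 550 and 523 CPM in Old and at 207, 156 and 205 CPM in Old PH (log2 -1.59 ± 0.16 SE, edgeR adjusted p = 8.32e-06). Abcb11 was at 695, 889 and 670 CPM and then at 381, 365 and 494 CPM (log2 -0.86 ± 0.17 SE, edgeR adjusted p = 0.00146). Baat was at 195 to 258 CPM in Old and at 149 to 161 CPM in Old PH, a fall of 0.50 on the log2 scale (SE 0.14, edgeR adjusted p = 0.0103) that was not called with library totals (adjusted p = 0.353).

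In the 4 lists, 4 of 14 other synthesis enzymes fell after PH in old mice, namely Cyp46a1 (-4.0), Slc27a2 (-1.23), Abcd3 (-0.55) and Cyp2c70 (the mouse muricholate enzyme, -0.65). Of 16 transporters 7 fell, with Abcc3 (-1.44), Abcg8 (-1.52), Atp7b (-0.67) and Abcg5 (-0.92) first, and Abcb1a rose (0.95). The 4 of 22 regulators that fell were the FGF15 receptor Fgfr4 (-0.49) and its coreceptor Klb (-0.66), and the FXR partners Rxra (-0.58) and Rxrb (-0.54). Of 18 FXR targets 5 fell and 2 rose, with Foxm1 at 5.21, Pltp at -3.00, Scarb1 (the HDL receptor) at -0.95 and Fetub at -1.30. Kupffer cell and macrophage markers fell in 7 of 8, from a summed 98.4 to 469 CPM in Old to 29.5 to 90.3 CPM in Old PH, and hepatocyte markers in 5 of 8. Endothelial markers fell in 6 of 8, from a summed 69.7 to 181 CPM to 37.4 to 49.7 CPM, and stellate cell and fibroblast markers in 3 of 8, from 62.1 to 140 CPM to 37.7 to 58.3 CPM. Their part in these results was not tested.

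The difference between the responses of old and young mice was tested as an interaction, which called 2.27% of all genes higher and 0.983% lower. Of the 10 genes only Nr0b2 was called, with a response 1.93 ± 0.46 SE higher on the log2 scale in old mice (edgeR adjusted p = 0.0387). This call was lost with upper-quartile factors (adjusted p = 0.0675), with gene-length offsets (0.0596), with the replicate number as a block (0.057) and in 9 of the 12 fits that left out 1 library, all but those without Young PH 3, Old 1 or Old PH 3. Over these alternatives the adjusted p ran from 0.00416 to 0.106 and the log2 value from 1.53 to 2.25. Cyp7a1 responded less in old mice by 1.23 ± 0.52 SE on the log2 scale, with an unadjusted p of 0.0326 and an edgeR adjusted p of 0.196, and the difference between ages was therefore not established for Cyp7a1. For the other 8 genes the interaction lay between -0.28 (Slc10a1) and 0.61 (Cyp8b1). Among the lists, Abcg2 (0.80), Zfp36l1 (1.48) and Insig2 (1.30) were called higher.

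**Figure D3:**
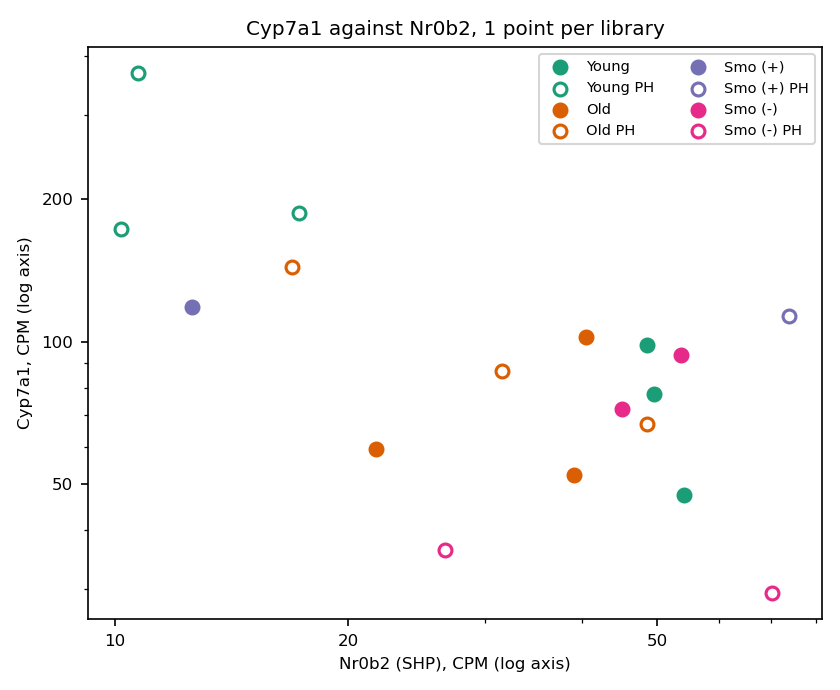
Cyp7a1 against Nr0b2 in CPM on log axes, 1 point per library, filled at 0 h and open at 48 h after PH; the wild type and Smo libraries were scaled separately. The 3 Young PH libraries lie at the upper left (Nr0b2 10.2 to 17.3 CPM, Cyp7a1 173 to 369 CPM), the Smo (+) library at 0 h at Nr0b2 12.6 CPM, and both Smo (-) PH libraries at the bottom (Cyp7a1 29.5 and 36.4 CPM).

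Before surgery, old hepatocytes differed from young ones in the uptake carrier Slc10a1, the conjugating enzymes Slc27a5 and Baat, and Cyp27a1, and not detectably in Cyp7a1 and Cyp8b1 of the classical pathway. Of the 10 genes 3 were higher and 1 was lower in Old, where 29.3% of all tested genes were higher and 33.7% lower. The members called were thus no larger a share than that of all genes. The median log2 fold change was -0.01, against -0.05 over all tested genes. This comparison and both comparisons after PH share libraries, Young or Old, and are given side by side only.

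Slc10a1 was at 523 to 637 CPM in Old against 937 to 1140 CPM in Young, 0.540 times as high with no overlap (log2 -0.89 ± 0.16 SE, edgeR adjusted p = 0.000299). Slc27a5 was at 1407 to 1891 CPM against 947 to 1022 CPM (log2 0.70 ± 0.16 SE, edgeR adjusted p = 0.00141). Baat was at 195 to 258 CPM against 119 to 152 CPM (log2 0.66 ± 0.14 SE, edgeR adjusted p = 0.000794). Cyp27a1 was at 662 to 927 CPM against 496 to 532 CPM (log2 0.54 ± 0.15 SE, edgeR adjusted p = 0.00715). The 3 higher calls were lost when gene length was entered as an offset, at log2 0.34 for Slc27a5 (adjusted p = 0.0707), 0.22 for Baat (0.115) and 0.13 for Cyp27a1 (0.447), and the lower Slc10a1 was kept.

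Cyp7a1 (log2 -0.06 ± 0.37 SE), Cyp8b1 (-0.26 ± 0.52), Cyp7b1 (0.08 ± 0.34), Abcb11 (-0.03 ± 0.17) and Nr1h4 (0.00 ± 0.17) overlapped between the ages and were not called. Nr0b2 was lower in each Old library, at 21.7 to 40.5 CPM against 48.4 to 54.1 CPM, but did not pass the test (log2 -0.59 ± 0.32 SE, edgeR adjusted p = 0.124). It passed with library totals (adjusted p = 0.0487) and when only these 2 groups were fitted (0.0363).

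Of the other synthesis enzymes, 7 of 14 were higher in Old, with Scp2 (which carries sterols and cleaves the side chain, 1.14), Hsd17b4 (the peroxisomal bifunctional enzyme, 0.98), Akr1c6 (0.91) and Amacr (the side chain racemase, 0.77) first, and only Hsd3b7 was lower (-1.44). The median of this list was 0.65. Of 16 transporters 6 were lower and 10 not called, a share near the 33.7% of all tested genes that were lower, led by Abcc2 (MRP2, canalicular export of conjugates, -1.69), Atp7b (-0.92), Atp8b1 (a phospholipid flippase of the canaliculus, -0.83) and Slc51a (OST-alpha, basolateral export, -2.43). Of 22 regulators 12 were lower and 4 higher, among them Zfp36l1 (-3.85), the corepressor Ncor1 (-1.80) and the coactivator Ncoa1 (-1.69). Of 18 other FXR targets 5 were higher and 4 lower, among them Apoc2 (-2.23), Sqstm1 (0.99), Kng1 (1.30) and Mafg (-0.82). Of 8 hepatocyte markers 3 were higher and 3 lower in Old (median log2 0.53), at a summed 131000 to 183000 CPM against 79500 to 99500 CPM. All 8 Kupffer cell and macrophage markers were higher in Old, at a summed 98.4 to 469 CPM against 59.4 to 91.8 CPM. Stellate cell and fibroblast markers were higher in 5 of 8 and lower in 1, at 62.1 to 140 CPM against 61.1 to 103 CPM. The part of these marker lists in the results was not tested.

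At 48 h after PH Cyp7a1 was lower and Nr0b2, its corepressor, was higher in old than in young mice. Of the 10 genes 4 were higher and 2 lower in Old PH, where 29.7% of all tested genes were higher and 32.4% lower. The members called were again no larger a share than that of all genes. The median log2 value was 0.39 against -0.07 over all tested genes. Cyp7a1, at 67.1 to 144 CPM in Old PH, lay below every Young PH library (173 to 369 CPM), a level 0.409 times as high (log2 -1.29 ± 0.37 SE, edgeR adjusted p = 0.00772). Without Young PH 2, the highest library, the log2 value was -0.84 and was not called (adjusted p = 0.0587). Nr0b2, at 16.9 to 48.5 CPM in Old PH against 10.2 to 17.3 CPM, was higher (log2 1.35 ± 0.33 SE, edgeR adjusted p = 0.00274), although the lowest Old PH library lay within the Young PH range.

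Slc10a1 was again lower in old mice, at 156 to 207 CPM against 394 to 488 CPM (log2 -1.17 ± 0.16 SE, edgeR adjusted p = 3.15e-05). Baat was higher, at 149 to 161 CPM against 75.1 to 82.1 CPM (log2 0.97 ± 0.14 SE, edgeR adjusted p = 3.29e-05). Slc27a5 (log2 0.71 ± 0.16 SE, adjusted p = 0.00134) and Cyp27a1 (0.44 ± 0.15, 0.0238) were higher by edgeR. These last calls were lost with gene-length offsets, and that of Cyp27a1 also without Young PH 2, Young PH 3 or Old PH 2. Cyp8b1 (log2 0.35 ± 0.53 SE), Cyp7b1 (0.62 ± 0.34), Abcb11 (0.19 ± 0.17) and Nr1h4 (0.08 ± 0.17) overlapped and were not called. Without Young PH 3, Cyp7b1 was called higher in Old PH (log2 1.02, adjusted p = 0.0249).

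In the lists, 8 of 14 other synthesis enzymes were higher in Old PH and 6 not called, with Scp2 (1.40), Akr1c6 (1.48), Hsd17b4 (1.12) and Amacr (1.10) first, which were also first before surgery. Of 16 transporters 3 were higher and 4 lower, among them Abcg2 (0.97), Atp7b (-0.72), Abcc2 (-1.01) and Slc51a (-3.66). Of 22 regulators 11 were lower and 3 higher, among them Ncoa1 (-1.49), Ncor1 (-1.52) and Zfp36l1 (-2.37). Of 18 FXR targets 5 were higher and 4 lower, with Sqstm1 (1.04), Apoc2 (-1.77), Slc51a (-3.66) and Scarb1 (-0.77) first. Of 8 hepatocyte markers 4 were higher and 1 lower in Old PH, at a summed 61700 to 85800 CPM against 44900 to 54300 CPM. Endothelial markers were lower in 3 of 8, at a summed 37.4 to 49.7 CPM against 85.4 to 104 CPM, and Kupffer cell and macrophage markers in 1 of 8. Their part in these results was not tested.

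Ratios of counts within a library give the balance between members without any scaling. The 12 differences of log2 ratios were compared by two-sided exact permutation tests, in which 3 libraries against 3 give no p under 0.1, so that none can reach 0.05 and the smallest value after Benjamini-Hochberg adjustment was 0.15. The Cyp8b1 to Cyp7a1 ratio changed by -4.82 on the log2 scale after PH in young mice and by -3.13 in old mice (exact p = 0.1 each), and was 1.37 higher in Old PH than in Young PH (exact p = 0.1), with no overlap of groups in any of the 3. Without Old PH 1, the value for Old PH against Young PH was 0.703. Between Old and Young it differed by -0.32 (exact p = 0.2). The Cyp7b1 to Cyp7a1 ratio, the alternative against the classical 7-alpha-hydroxylase, fell by 2.71 after PH in young mice (exact p = 0.1) and was 1.95 higher in Old PH than in Young PH (exact p = 0.1), while its differences after PH in old mice (-0.84, exact p = 0.4) and between Old and Young (0.07, exact p = 0.9) lay within the spread.

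The Abcb11 to Slc10a1 ratio, export against uptake, was 0.696 to 0.748 in Young and 1.09 to 1.62 in Old, a log2 difference of 0.85 (exact p = 0.1). It was 0.658 to 1.03 in Young PH and 1.84 to 2.41 in Old PH, a difference of 1.36 (exact p = 0.1). Every old library lay above every young library in this ratio. PH raised it in old mice by 0.73 (exact p = 0.1, groups separate) and in young mice the change of 0.22 was within the spread (exact p = 0.4).

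**Figure D4:**
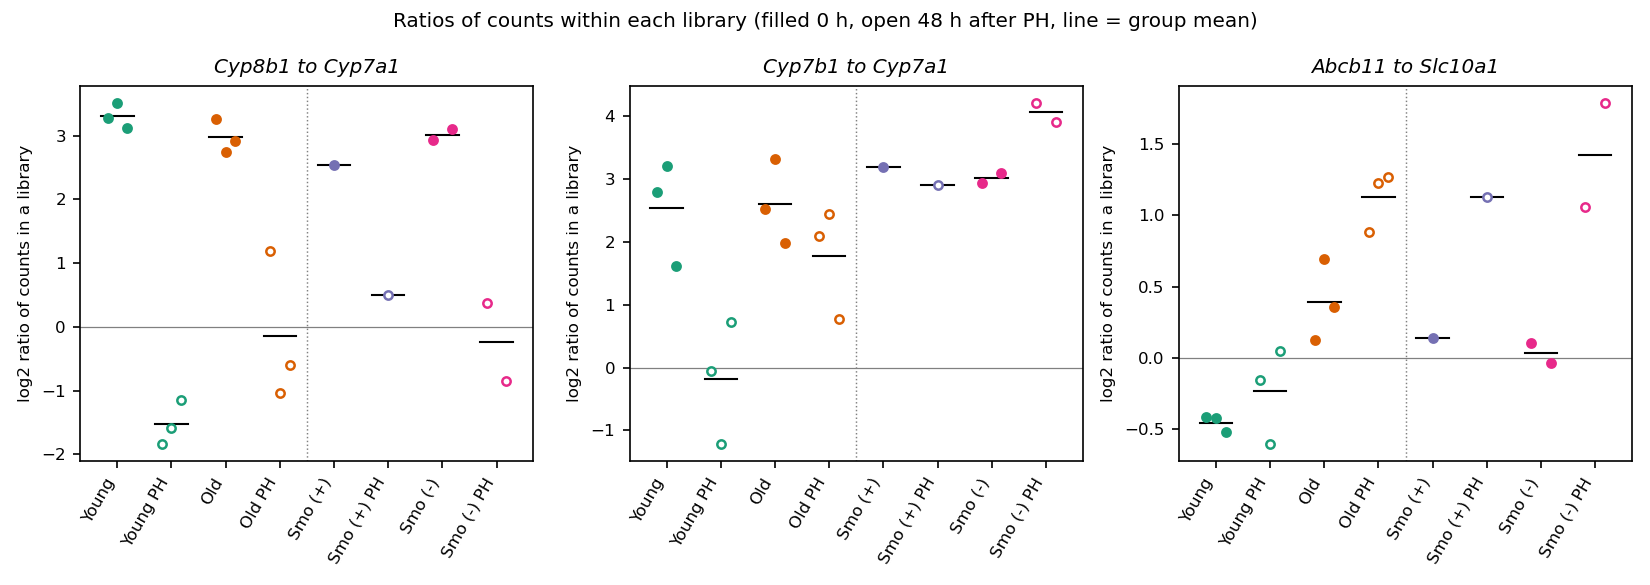
Log2 ratios of counts of 2 genes within each library, 1 point per mouse, filled at 0 h and open at 48 h after PH, with a line at the group mean and a line at 0 where both genes have equal counts. The mean Cyp8b1 to Cyp7a1 value goes from 3.30 in Young to -1.52 in Young PH and from 2.98 in Old to -0.15 in Old PH, and the Abcb11 to Slc10a1 value is higher in old than in young libraries.

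Likeness of patterns was described by Pearson r of log2 CPM over the 12 wild type libraries among 7576 genes with a mean of at least 10 CPM; these libraries share groups and depth, and no test was made. Slc27a5 was the second most alike gene to Cyp27a1 (r = 0.988) after C1ra (0.992). The genes most like Slc27a5 were Hgfac (0.992), Acad10 (0.989) and Dolk (0.989), ahead of Cyp27a1. Cyp7a1 was most like Cfl1 (0.941), Opa3 (0.939) and Mapk3 (0.919), none of them a gene of bile acid synthesis. Cyp8b1 was most like Slc20a2 (0.971), Pipox (0.957) and Proz (0.951), and Slc10a1 most like Slco2a1 (0.984), Agtr1a (0.98) and Fzd8 (0.967). Nr0b2 had no neighbour above Trappc11 (0.896), and Nr1h4 none above Zfp787 (0.879). Within the set, Cyp7a1 had a negative r with every other member, from -0.798 (Nr0b2) to -0.0877 (Nr1h4). Slc27a5 (-0.735), Cyp27a1 (-0.704), Abcb11 (-0.688), Cyp7b1 (-0.682) and Baat (-0.66) lay near Nr0b2. Cyp8b1 (-0.435) and Slc10a1 (-0.198) lay further off. The negative r was thus not particular to Nr0b2.

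In Smo-floxed mice the comparison of Smo (-) with Smo (+) asked what loss of Smo in hepatocytes does before and after PH. The Smo (+) groups hold 1 library each, so that a p assumes that this library varies like the Smo (-) groups, and the fit had 2 residual degrees of freedom. At 0 h 2 of the 10 genes were higher in Smo (-) and 8 not called, where 13.9% of all tested genes were higher and 13.5% lower. The members called were no larger a share than that of all genes. Nr0b2 was at 45.1 and 53.7 CPM in Smo (-) and 12.6 CPM in Smo (+) (log2 1.97 ± 0.50 SE, edgeR adjusted p = 0.02), and was not called by DESeq2 (0.0686) or without Smo (-) 2 (0.0513). Baat was at 152 and 138 CPM against 75.0 CPM (log2 0.95 ± 0.20 SE, edgeR adjusted p = 0.0104). Both calls rest on the Smo (+) library with 22.5% mitochondrial genome counts, in which all 8 Kupffer cell and macrophage markers and 7 of 8 endothelial markers were called higher than in Smo (-). Of 8 hepatocyte markers, 4 were called higher in Smo (-) than in this library and 1 lower. Tat was at 157 CPM in it against 590 to 950 in Smo (-), and Cps1 at 783 against 2840 to 3540. Apoa1 went the other way, at 24900 against 6980 to 11700 CPM. The part of these in the result was not tested.

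Cyp7a1 was at 72.2 and 93.8 CPM in Smo (-) and 118 CPM in Smo (+) (log2 -0.51 ± 0.22 SE, edgeR adjusted p = 0.111), and was called lower only without Smo (-) 2 (adjusted p = 0.0282). Cyp8b1, at 551 and 803 CPM against 690 CPM, and Nr1h4, at 135 and 106 CPM against 117 CPM, enclosed the control value. The other 5 genes differed by -0.67 (Cyp7b1) to 0.22 (Slc10a1) on the log2 scale and were not called. Of the 14 other synthesis enzymes 8 were higher, with Acox2 (1.18), Akr1d1 (1.15), Hsd17b4 (1.29) and Akr1c14 (1.29) first, and only Cyp39a1 was lower (-1.45). Of 14 transporters 3 were higher, Atp7b (0.99), Abcc2 (1.00) and Atp8b1 (0.63), and Abcc4 was lower (-1.96). Of 23 regulators 5 were higher and 18 not called, among them Zfp36l1 (1.98), Hnf4a (1.07) and Prox1 (1.43). Of 16 FXR targets Sqstm1 was higher (0.91), and Foxm1 (-1.99), Kng1 (-0.94) and Fetub (-0.74) were lower.

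At 48 h after PH Cyp7a1 was the only member called. It was at 36.4 and 29.5 CPM in Smo (-) PH against 113 CPM in Smo (+) PH, 0.291 times as high (log2 -1.78 ± 0.22 SE, edgeR adjusted p = 0.0306), in a comparison that called 0.0879% of all tested genes lower and 0.0366% higher. The call was lost with upper-quartile factors (0.0883) and with a filter of CPM above 1 (0.0535), and the log2 value stayed between -1.94 and -1.63 over all alternatives. Cyp8b1 was at 47.1 and 16.4 CPM against 161 CPM (log2 -2.35 ± 0.47 SE), the largest difference of the set, and did not pass (edgeR adjusted p = 0.185). All 10 genes had both Smo (-) PH values below the single Smo (+) PH library, as did 37.2% of all tested genes, with log2 values of -0.14 (Baat) to -2.35 and a median of -0.52 against 0.00 over all tested genes. With 1 control library, its own level enters all 10 differences. Without Smo (-) PH 1, Cyp8b1 was called as well (log2 -3.30), and without Smo (-) PH 2, Cyp8b1 (-1.77) and Nr0b2 (-1.47). None of the 65 list genes tested was called by edgeR, and 2 higher and 4 lower ones had an unadjusted p under 0.05.

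After PH in Smo (-) mice 6 of the 10 genes fell and 4 were not called, where 14.2% of all tested genes were lower and 16% higher (median log2 -1.19 against 0.01). Cyp8b1 went from 551 and 803 CPM to 47.1 and 16.4 CPM (log2 -4.42 ± 0.45 SE, edgeR adjusted p = 0.000145). Cyp7a1 fell as well, from 72.2 and 93.8 CPM to 36.4 and 29.5 CPM (log2 -1.33 ± 0.19 SE, edgeR adjusted p = 0.000835), where it had risen in young wild type mice. The 2 tables were scaled and tested separately, and this difference between them was not tested. Slc27a5 (log2 -1.61), Slc10a1 (-1.60) and Cyp27a1 (-1.49) fell by amounts close to those in wild type mice, and Nr1h4 fell from 135 and 106 CPM to 58.5 and 57.9 CPM (log2 -1.05 ± 0.17 SE, edgeR adjusted p = 0.00182).

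Nr0b2 was at 45.1 and 53.7 CPM in Smo (-) and at 26.6 and 70.3 CPM in Smo (-) PH, 1 mouse below and 1 above the resting range (log2 -0.03 ± 0.35 SE). Without the higher of them, Smo (-) PH 2, it was called lower (log2 -0.89, adjusted p = 0.0107). Abcb11 (log2 -0.24 ± 0.18 SE), Baat (-0.31 ± 0.15) and Cyp7b1 (-0.28 ± 0.26) were not called. In the Smo (+) mice, 1 library per time and no test, Cyp7a1 was at 118 and 113 CPM at 0 h and 48 h, Cyp8b1 at 690 and 161 CPM, Nr0b2 at 12.6 and 73.8 CPM, Slc10a1 at 493 and 258 CPM and Abcb11 at 543 and 566 CPM. In these Nr0b2 stood higher after PH, the opposite order to that in young wild type mice, and Cyp7a1 stood at about the same level. The order of Nr0b2 rests on the 0 h library with 22.5% mitochondrial genome counts, whose 12.6 CPM lay below both Smo (-) libraries at 0 h. The part of that library's features in it was not tested.

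**Figure D5:**
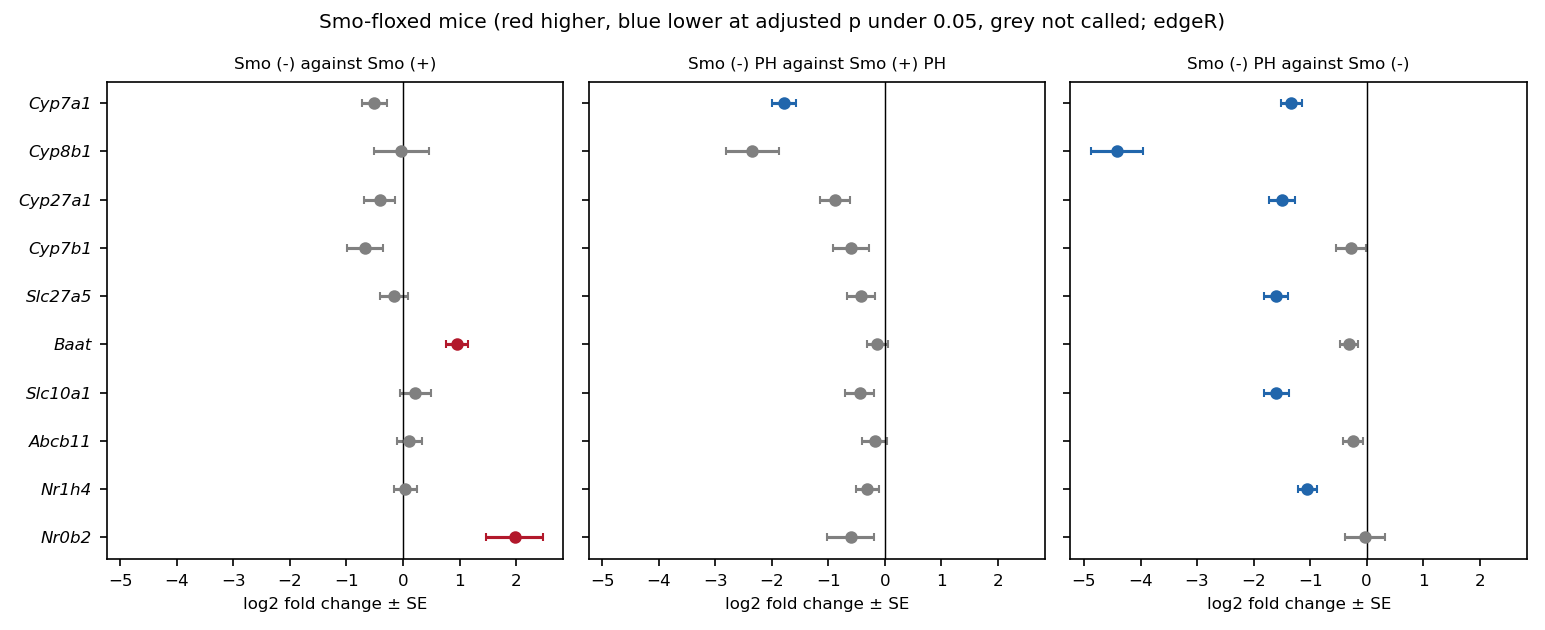
Log2 fold change with its standard error (edgeR) of the 10 genes in 3 comparisons of Smo-floxed mice (2 Smo (-) libraries and 1 Smo (+) library per time), on 1 common axis; red points are higher, blue points lower at an adjusted p under 0.05, grey points not called. Cyp7a1 is called at -1.78 for Smo (-) PH against Smo (+) PH and at -1.33 for Smo (-) PH against Smo (-), and Cyp8b1 at -4.42 in the latter.

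The lists after PH in Smo (-) mice gave 6 of 14 other synthesis enzymes lower and 2 higher, with Cyp46a1 (-4.05), Akr1c14 (-1.58), Cyp39a1 (the oxysterol 7-alpha-hydroxylase of 24-hydroxycholesterol, 1.97) and Slc27a2 (-1.05) first. Of 14 transporters 6 fell and 2 rose, among them Abcc3 (-1.82), Slco1b2 (-1.57), Atp8b1 (0.95) and Slco1a1 (-1.83). Of 23 regulators 6 fell, led by Nr1i3 (the receptor CAR, -1.82), Rxrb (-1.18) and Zfp36l1 (-1.35), and only Insig2 rose (0.84). Of 16 FXR targets 4 rose and 2 fell, with Foxm1 (5.75), Sdc1 (1.46), Fgb (0.90) and Ces1g (-0.81) first. All 8 Kupffer cell and macrophage markers were higher after PH, at a summed 322 and 372 CPM against 103 and 147 CPM, and their part in these results was not tested.

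The effect of Smo deletion at 48 h was also set against that at 0 h, a contrast added after the data were seen, which called 4.6% of all tested genes higher and 6.14% lower. Of the 10 genes 3 were lower, Cyp7a1 (log2 -1.27 ± 0.32 SE, edgeR adjusted p = 0.0408), Baat (-1.09 ± 0.27, 0.0387) and Nr0b2 (-2.58 ± 0.64, 0.0394), and 7 were not called, among them Cyp8b1 (-2.32 ± 0.70, 0.0599). With upper-quartile factors no member was called (edgeR unadjusted p, at TMM scaling, 0.00253 to 0.00297 for these 3), and with library totals 5 were. Nr0b2 was not called by DESeq2 (0.121) or without Smo (-) 2 (0.0532), Cyp7a1 without Smo (-) PH 2 (0.0714), and Baat without Smo (-) PH 1 (0.0994) or Smo (-) PH 2 (0.0807). Cyp8b1 was called without Smo (-) PH 1 (log2 -3.27) and without Smo (-) PH 2 (-1.74). In the lists Hsd17b4 (-1.61), Akr1d1 (-1.27), Akr1c14 (-1.49), Atp7b (-1.01), Zfp36l1 (-2.41) and Hnf4a (-1.19) were among the genes called lower. This contrast rests on the Smo (+) library at 0 h, whose mitochondrial genome share and marker sums are given above, and their part in it was not tested.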

How the data were processed

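The authors deposited unnormalized counts of read pairs for Ensembl genes, 1 column per mouse, made from polyadenylated RNA with Trim Galore, STAR 2.5.0c (build mm10), SAMtools, Picard duplicate removal and HTSeq. The annotation release and strand setting are not given in the sources used here. Genes were matched by Ensembl identifier, since the names in the Smo table equal the reference in 1.53% of rows against 97.1% in the other. HTSeq's rows for pairs not assigned to a gene were kept apart, and 0 sample columns were unused.

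Each table was fitted whole in R 4.3.3 with edgeR 4.0.16 (TMM, filterByExpr with a minimum count of 10 and total of 15, quasi-likelihood test, 1 coefficient per group), with 8 and 2 residual degrees of freedom and coefficients of biological variation of 0.19 and 0.168. The fit was tested on simulated data. Log2 CPM used a prior count of 2 and ratios a pseudocount of 0.5. Alternatives were DESeq2 1.42.0, limma 3.58.1 (voom), other scalings and filters, gene-length offsets, a replicate block, fits of the compared groups only, fits without mitochondrial genome or long noncoding genes, and leaving out each library.

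The 10 genes and the lists were chosen with earlier results of these data known. The text names all 10 genes, up to 4 genes per list and comparison with the smallest adjusted p, any gene alone in its direction, and the genes of highest likeness. Some genes under this rule are left unnamed here. Replicates are separate mice by the labels, and no 2 libraries of a group were within sampling noise of each other (chi-square per degree of freedom 26.2 to 112). Promoters are RefSeq's. Read pairs carry no molecular identifiers.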

Additional observations from a re-analysis of the deposited data

Results flagged for a closer look

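Responses of the 10 genes that differed between groups by a test of the difference are listed here as values. The response of Nr0b2 to PH was 1.93 higher on the log2 scale in old than in young mice (edgeR adjusted p = 0.0387), with Nr0b2 at 48.4 to 54.1 CPM in Young, 10.2 to 17.3 CPM in Young PH, 21.7 to 40.5 CPM in Old and 16.9 to 48.5 CPM in Old PH. The effect of Smo deletion at 48 h differed from that at 0 h by -1.27 for Cyp7a1 (edgeR adjusted p = 0.0408), by -1.09 for Baat (0.0387) and by -2.58 for Nr0b2 (0.0394) on the log2 scale. These last 3 differences rest on 1 Smo (+) library per time.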

How the results depend on the processing

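In the wild type libraries, deviations from group means correlated at -0.112 to 0.226 for libraries of the same number and at -0.217 to 0.133 for others. These ranges overlap, and with 3 libraries a group they cannot decide whether the numbers in the labels pair the mice. With the replicate number as a block the members called were 4 for old against young, 8 for young PH, 6 for old PH against old, 6 for old PH against young PH, 6 for Smo (-) PH against Smo (-) and 0 for the response difference. The block took out Cyp7b1 in young PH and Nr0b2 in the response difference. Precision is limited by 3 libraries a group, and by 1 Smo (+) library per time.

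Of the members' counts, old against young went from 4 to 1 with gene-length offsets. The response difference went from 1 to 0 with upper-quartile factors and gene-length offsets, and ranged from 0 to 1 when 1 library was left out. Smo (-) against Smo (+) went from 2 to 1 with DESeq2. Smo (-) PH against Smo (+) PH went from 1 to 0 with upper-quartile factors and a filter of CPM above 1, to 2 with library totals and 3 without a filter, and ranged from 2 to 3 when 1 library was left out. The difference between the effects of Smo deletion went from 3 to 0 with upper-quartile factors and to 5 with library totals. Over all genes the response difference called 474 genes, 1105 with DESeq2, 246 with upper-quartile factors, 272 with library totals, and as few as 60 without Young PH 2 and as many as 825 without Old 1. Smo (-) PH against Smo (+) PH called 17 genes, 51 with DESeq2, 3 with upper-quartile factors, 42 with library totals, 179 without a filter, 5 with the CPM filter, 104 without Smo (-) PH 1 and 53 without Smo (-) PH 2. Smo (-) PH against Smo (-) called 4124, and 2482 without Smo (-) PH 2. The difference of Smo effects called 1466, 665 with upper-quartile factors, 3153 with library totals, 2991 without a filter and 3751 without Smo (-) 2. Library totals moved the all-gene median to -0.25, 0.24, 0.41, -0.19 and 0.16 in the 5 wild type contrasts, in the order of the comparisons old against young, young PH, old PH against old, old PH against young PH and response difference, and to 0.42 for Smo (-) against Smo (+), 0.13 for Smo (-) PH against Smo (-) and -0.40 for the difference of Smo effects. The share of higher among called genes went with them from 52.1 to 76.7% after PH in young, from 59.8 to 84.3% in old (41.0% with upper-quartile factors), from 50.6 to 77.1% for Smo (-) against Smo (+) (39.1%), from 52.9 to 65.4% for Smo (-) PH against Smo (-) and from 42.8 to 17.4% for the difference of Smo effects (58.5%). That of Smo (-) PH against Smo (+) PH was 29.4%, and 0% of 3 genes with upper-quartile factors. That of the response difference was 69.8%, 56.7% with DESeq2, 37.8% with upper-quartile factors, 54.8% without a filter, 59.2% with gene-length offsets, and 38.4% without Old 1 against 80.0% without Young 1.

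Changes of sign were confined, in the alternatives run, to members not called. For old against young they were Nr1h4 at -0.0249 with limma-voom, -0.222 with library totals, -0.0186 without long noncoding genes, -0.386 with gene-length offsets and -0.00613 with the block, Cyp7a1 at 0.0664 with upper-quartile factors and 0.00107 without a filter, Abcb11 at 0.11, 0.0391 without a filter and 0.0956 with gene-length offsets, and Cyp7b1 at -0.16 with library totals and -0.33 with gene-length offsets. After PH in old mice, library totals gave 0.15 for Nr1h4 and 0.33 for Nr0b2. For old PH against young PH, library totals gave -0.0436 for Nr1h4, and gene-length offsets -0.284 for Nr1h4 and -0.0636 for Cyp8b1. In the response difference, Slc27a5 was at -0.16 with upper-quartile factors, -0.0274 without a filter, -0.00695 without long noncoding genes, -0.0456 with DESeq2 and with RLE size factors, -0.0357 with the CPM filter and -0.0022 without mitochondrial genome genes, Nr1h4 at -0.0817 with upper-quartile factors and Cyp27a1 at 0.00913 with library totals. For Smo (-) against Smo (+), upper-quartile factors gave -0.0227 for Abcb11 and -0.0969 for Nr1h4, library totals 0.39 for Cyp8b1, 0.00661 for Cyp27a1 and 0.26 for Slc27a5, and Cyp8b1 was at 0.00303 without a filter and 0.16 with gene-length offsets. Nr0b2 in Smo (-) PH against Smo (-) was at 0.0496 with upper-quartile factors and 0.12 with library totals, and Cyp7b1 in the difference of Smo effects at -0.35 with library totals and -0.15 with gene-length offsets. The cause was not tested.

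When 1 library was left out, sign changes fell in these ranges. For old against young they were -0.0792 to 0.144 (Abcb11), -0.31 to 0.20 (Cyp7a1), -0.13 to 0.47 (Cyp7b1), -0.11 to 0.22 (Nr1h4), -0.707 to 0.0854 (Cyp8b1) and -0.39 to 0.41 (log2 ratio of Cyp7b1 to Cyp7a1). They were -0.46 to 0.26 for Nr0b2 after PH in old mice, and -0.00584 to 0.238 (Nr1h4) and -0.41 to 0.79 (Cyp8b1) for old PH against young PH. In the response difference they were -0.11 to 0.13 (Slc27a5), -0.0842 to 0.243 (Nr1h4), -0.223 to 0.00479 (Cyp27a1) and -0.14 to 1.11 (Cyp8b1). For the Smo table they were -0.33 to 0.22 (Cyp8b1) and -0.15 to 0.20 (Nr1h4) at 0 h, -0.615 to 0.0018 (Cyp7b1) and -0.89 to 0.51 (Nr0b2) after PH in Smo (-), and -0.26 to 0.38 for Cyp7b1 in the difference of Smo effects.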

Other observations

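Slc10a2 (ASBT), the apical bile acid importer that in the liver is known from bile duct cells, was measured as a bile duct marker. It was at 7.89 to 17.2 CPM in Young and 34.8 to 58.9 CPM in Young PH, a 4.01-fold rise (log2 2.00 ± 0.38 SE, edgeR adjusted p = 0.00114). In old mice it went from 16.2 to 58.4 CPM to 63.3 to 89.7 CPM (log2 1.02 ± 0.37 SE, edgeR adjusted p = 0.0451), and in Smo (-) mice from 8.49 and 9.51 CPM to 42.1 and 48.2 CPM (log2 2.33 ± 0.17 SE, edgeR adjusted p = 2.19e-05). It thus rose after PH in each of these 3 comparisons, while the hepatocyte uptake carrier Slc10a1 fell. Before surgery Slc10a2 was higher in Old than in Young with overlapping groups (log2 1.59 ± 0.38 SE, edgeR adjusted p = 0.00249). The duct markers Krt19 and Epcam were at 0 to 0.427 CPM in all wild type libraries and at 0 to 1.16 CPM in the Smo (-) libraries. Spp1, of the same list, was at 1.05 to 2.58 CPM in Young and 2.49 to 8.01 CPM in Young PH. In old mice Spp1 went from 2.87 to 7.81 CPM to 8.79 to 28.2 CPM. Of the 4 markers of this list tested, Slc10a2 among them, 2 were higher and 0 lower after PH in each age. Slc10a2 was singled out after its values were seen.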
